A study of Mus musculus with 6 samples.

Results

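The genes described here encode the platelet-derived growth factors (PDGF), the KIT ligand and the receptors of both, and were chosen by symbol: Pdgfa, Pdgfb, Pdgfc, Pdgfd, Pdgfra, Pdgfrb, Kitl and Kit, 8 of the 25239 genes in the counts table. All 8 had enough reads to be tested. RNA was sequenced in bulk from thyroid organoids at day 31 of differentiation from 1 line of G4 RosaLuc mouse embryonic stem cells carrying TRE-Nkx2-1-Pax8 and bTg-NES-BrafV637E-ERT2, to ask how oncogenic Braf and its downstream inhibition change thyroid cells. The 3 groups held 2 libraries each, and at least 3 wells were pooled for each sample. Nothing in the labels places the replicates in separate differentiations, so the p-values measure the spread between these libraries, which may be technical.

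All 3 groups carried the same transgenes, a doxycycline-inducible Nkx2-1 and Pax8 cassette and a Braf V637E fusion to the ERT2 domain driven by the bovine thyroglobulin (bTg) promoter, so the silent fusion is also in the control. All received doxycycline (1 µg/ml) for 5 days and 8-Br-cAMP for 2 weeks. The cAMP group then stayed in 8-Br-cAMP with ethanol as vehicle. The 4OHT group received 8-Br-cAMP with 4-hydroxytamoxifen (1 µM, 5 days), which releases the Braf fusion into the cytoplasm. The PD+LY group received 8-Br-cAMP, 4-hydroxytamoxifen (1 µM) and, for 3 days, the MEK inhibitor PD0325901 (250 nM) with the PI3K inhibitor LY204002 (5 µM). The methods place the inhibitors after 4 days of 4OHT, so the time in 4OHT may differ between PD+LY and 4OHT and cannot be told apart from the inhibitors, nor can the inhibitors from each other. No library tells 4OHT as a compound apart from the active fusion. The line was grown from a selected clone on embryonic fibroblast feeders, the bTg promoter limits the fusion to thyroid-like cells, and enrichment for follicles leaves other cells in the samples.

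PDGF chains form disulfide-linked dimers that act mostly on neighbouring cells. PDGF-A and PDGF-C bind the alpha receptor, PDGF-B binds the alpha and the beta receptor and PDGF-D binds the beta receptor, and in many organs epithelium or endothelium secretes the ligand while mesenchymal or mural cells carry the receptor. KIT, a receptor tyrosine kinase of the same class, is bound by the KIT ligand (stem cell factor) and is best known from germ cells, melanocytes, mast cells and interstitial cells of Cajal; normal thyroid epithelium also expresses it, and papillary carcinomas often lose it. Both receptor types signal through the RAS to ERK route and through PI3K.

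Totals were 16060341 and 20533878 counts for cAMP, 14898409 and 18246077 for 4OHT, and 19508401 and 20637959 for PD+LY. Levels are given in CPM, read counts scaled by the TMM-normalized library total, on which 1 count is worth 0.0486 to 0.0667 CPM. Differences are log2 fold changes from 1 edgeR quasi-likelihood fit to all 6 libraries, with p adjusted by Benjamini-Hochberg over 15256 tested genes, and a gene is called with an adjusted p under 0.05 and a change of at least 2-fold. For a single value, an exact two-sided permutation test of 2 against 2 libraries cannot go below p = 0.333.

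Tg, the hormone precursor, was the most abundant of 11 thyroid follicular markers (mean 1095 CPM), and 10 of the 11 had at least 3 counts in every library; Slc26a4 had 0 to 5. The summed thyroid level was 1659 and 1111 CPM in cAMP, 574 and 767 in 4OHT, and 1999 and 999 in PD+LY. The PD+LY libraries were thus far apart. Transcripts of other cell types were also present, and 8 pluripotency markers summed to 3446 and 3340.1 CPM in cAMP, 4007 and 3819 in 4OHT, and 3881 and 4171 in PD+LY, led by Dppa5a. In such bulk samples fewer cells of a type and less RNA per cell cannot be told apart.

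Per kilobase of annotated exon, Kit had the highest level (median over the libraries 26.1 CPM per kb, range 24.0 to 36.9), followed by Pdgfra (14.5, 11.2 to 16.6) and Pdgfa (9.46 to 14.0). Kit lay above Pdgfra in every library, with ranges that did not overlap, whereas Pdgfra exceeded Pdgfa in 5 of 6 libraries with overlapping ranges. Pdgfrb came next (4.91 CPM per kb, 2.07 to 6.18), below the range of Pdgfa. The low end was held by the ligands Pdgfb (2.02, 1.18 to 2.78), Kitl (1.17, 0.696 to 3.21), Pdgfc (1.00, 0.826 to 1.22) and Pdgfd (0.452, 0.243 to 0.840). Among these neighbours in the order the ranges overlapped, and Kitl exceeded Pdgfc in 3 of 6 libraries.

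**Figure D1:**
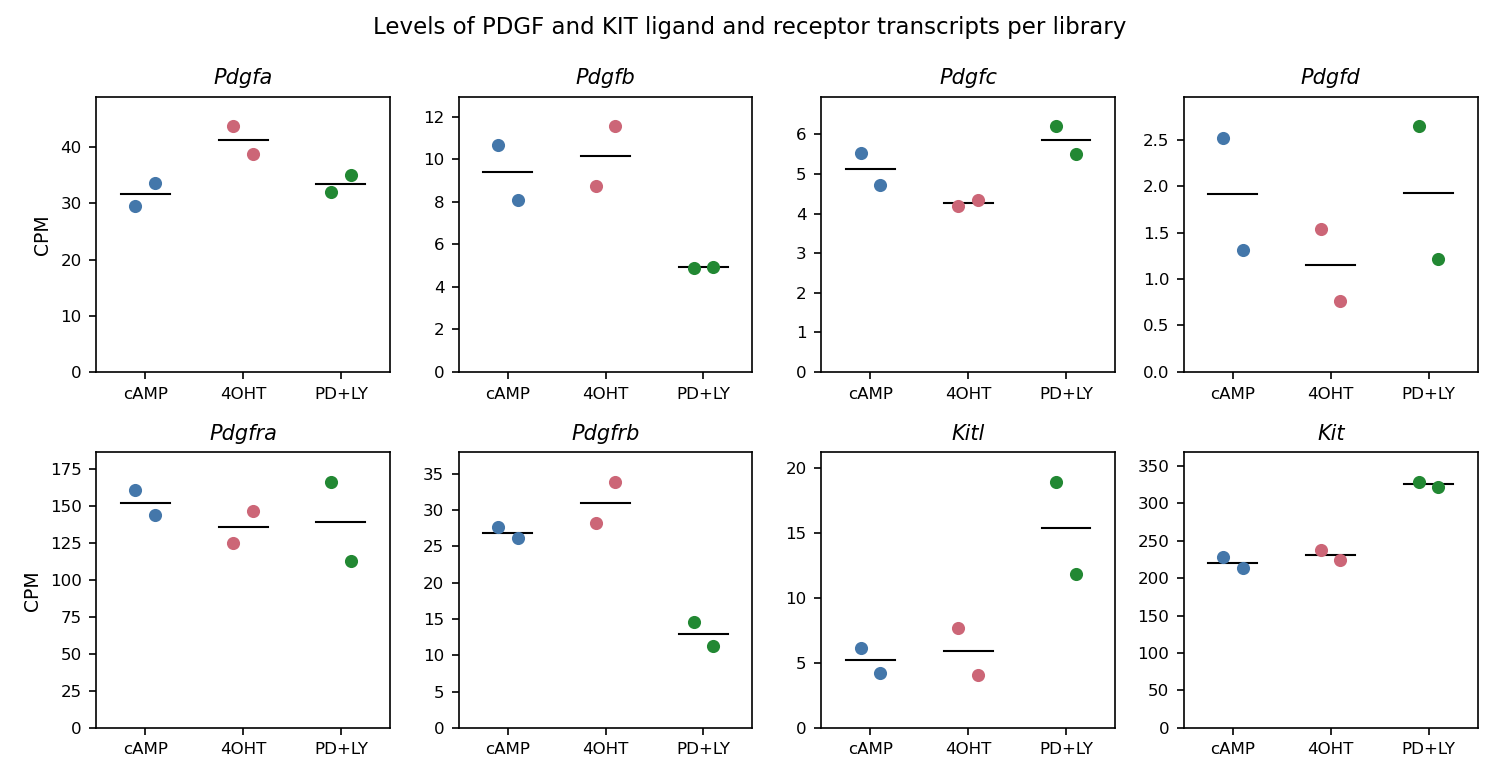
Level in CPM (vertical axes, each starting at 0) of the 8 genes in the 6 libraries, by group (horizontal axes); points are libraries and lines are group means (n = 2). Both PD+LY libraries lie below all others for Pdgfb and Pdgfrb and above all others for Kitl and Kit.

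4OHT versus cAMP asks what the active Braf fusion changes. None of the 8 genes was called by edgeR (0 of 8), where 2.67% of all tested genes were (1.17% upward, 1.51% downward); DESeq2 also called 0, and 1 gene, Pdgfa, had an unadjusted p under 0.05. By adjusted p alone 8.39% of all tested genes passed (4.04% upward, 4.35% downward) and again 0 of the 8. The libraries of the groups did not overlap for 3 of the 8, Pdgfa, Pdgfc and Pdgfrb, where 58.5% of all tested genes did not. The background share rests on 408 genes and moves with single libraries, to 150 genes without 4OHT library 1, 188 without 4OHT library 2 and 259 without cAMP library 1.

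PD+LY versus 4OHT asks what the inhibitors change in Braf-active organoids. Kitl rose, and Pdgfb and Pdgfrb fell. These 3 of 8 genes compare with 7.26% of all tested genes called, 2.35% upward and 4.90% downward. By adjusted p alone, where 22.7% of all tested genes pass (10.7% upward, 12.1% downward), Kit joined Kitl among the higher genes. The libraries did not overlap for 6 of the 8, all but Pdgfd and Pdgfra, beside 62.3% of all tested genes. DESeq2 called 3 as well. Without 4OHT library 2, 610 genes in place of 1107 were called, and of the 8 genes only Pdgfrb.

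PD+LY versus cAMP sets inhibited Braf-active organoids beside organoids never given 4OHT; it shares the PD+LY libraries with the previous comparison and the cAMP libraries with the first, so the 3 are not independent. Kitl was higher and Pdgfrb lower, 2 of 8 genes against 9.24% of all tested genes (3.00% upward, 6.24% downward). Pdgfb and Kit passed the adjusted p, as 25.7% of all tested genes did (12.1% upward, 13.7% downward), but stayed under 2-fold. The libraries did not overlap for these 4 of 8, beside 61.4% of all tested genes. DESeq2 called 2. The count was 1 without PD+LY library 2 (Kitl) and 3 without cAMP library 2 (Kitl, Pdgfb and Pdgfrb).

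**Figure D2:**
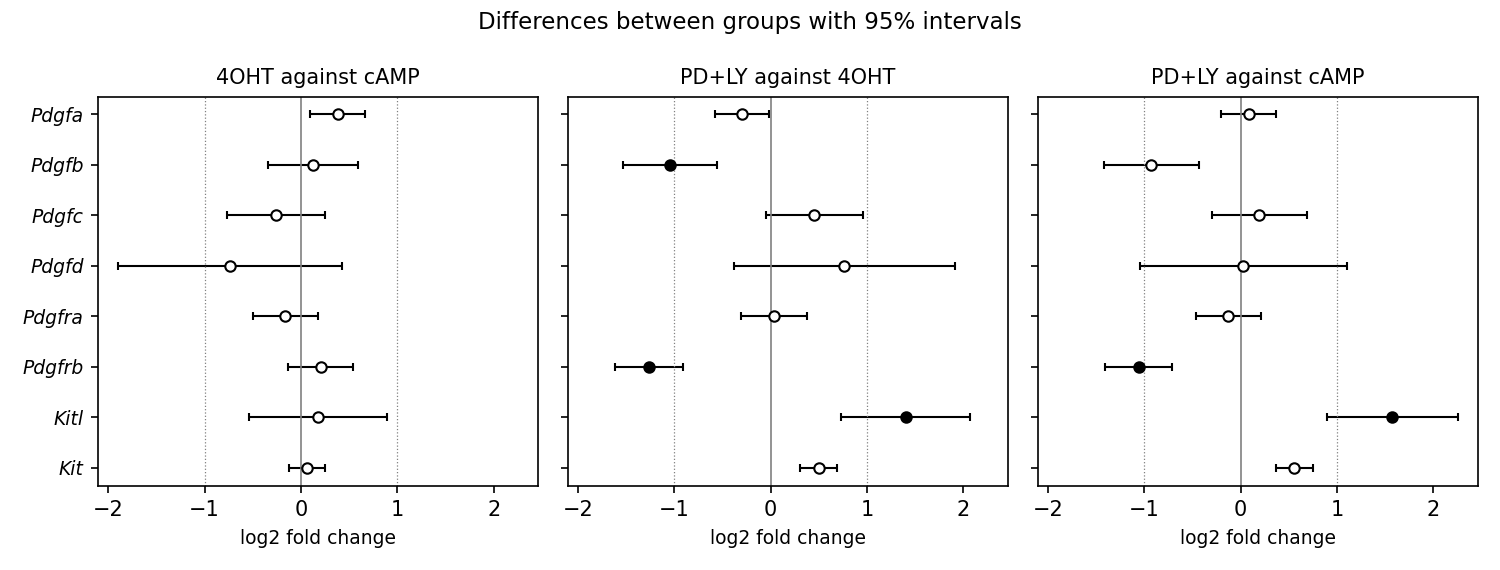
Log2 fold changes (horizontal axes) of the 8 genes (vertical axis) in the 3 comparisons, with 95% intervals from the edgeR fit; filled points are called and dotted lines mark 2-fold. Kitl lies right of 0 and Pdgfrb left of 0 in both PD+LY comparisons, and all intervals but that of Pdgfa include 0 in 4OHT versus cAMP.

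Pdgfb, which encodes the chain that binds both PDGF receptors and recruits pericytes to endothelium, lies on chromosome 15 of GRCm38 (79995874 to 80014977, minus strand). It had 10.7 and 8.09 CPM in cAMP, 8.74 and 11.6 in 4OHT, and 4.89 and 4.96 in PD+LY. The PD+LY libraries were nearly equal and below the other 4, while cAMP and 4OHT overlapped. Its log2 fold change was 0.12 in 4OHT versus cAMP (SE 0.22), -1.05 in PD+LY versus 4OHT (SE 0.22; Benjamini-Hochberg adjusted p = 0.00625 by edgeR quasi-likelihood) and -0.92 in PD+LY versus cAMP (SE 0.22, adjusted p = 0.0102 by the same test). The fall against 4OHT was just past 2-fold and was -0.82 without 4OHT library 2, no longer called. Against cAMP it reached -1.11 and a call without cAMP library 2, and was -0.72 and no longer past the adjusted p without cAMP library 1. The uncalled estimate for 4OHT versus cAMP turned to -0.06 without cAMP library 2 and to -0.10 without 4OHT library 2. The libraries rest on 96 to 211 counts.

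Pdgfa encodes the chain specific to the alpha receptor, a typical epithelial signal to mesenchyme, and lies on chromosome 5 (138976014 to 138997370, minus strand). It had 29.5 and 33.7 CPM in cAMP, 43.8 and 38.7 in 4OHT, and 32.0 and 35.0 in PD+LY. Both 4OHT libraries were above the other 4, and cAMP and PD+LY overlapped. The log2 fold change of 0.38 in 4OHT versus cAMP (95% interval 0.10 to 0.67) did not pass the correction (edgeR quasi-likelihood, Benjamini-Hochberg adjusted p = 0.0951), nor did -0.30 in PD+LY versus 4OHT (95% interval -0.58 to -0.02, adjusted p = 0.116 by the same test). With a replicate block, with only the 2 groups compared or without either PD+LY library the former passed the adjusted p, at 0.38 in each case, under 2-fold. The estimate for PD+LY versus cAMP was 0.08 (SE 0.13). Exons of the antisense RNA 6330403L08Rik cover 813 bases, 26.1%, of the Pdgfa exons. Reads of the pair cannot be separated in counts made without strand.

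Pdgfc and Pdgfd encode ligands secreted in a latent form, from which proteases remove a CUB domain. Pdgfc (chromosome 3, 81036416 to 81214040, plus strand) ranged from 4.20 to 6.21 CPM over the libraries, on 63 to 122 counts. Both 4OHT libraries (4.20 and 4.33 CPM) lay below the cAMP libraries (5.53 and 4.73) and the PD+LY libraries (6.21 and 5.50), and no comparison passed the test. Pdgfc had log2 fold changes of -0.26 (SE 0.23), 0.45 (SE 0.23) and 0.19 (SE 0.23) in 4OHT versus cAMP, PD+LY versus 4OHT and PD+LY versus cAMP. Pdgfd (chromosome 9, 6168584 to 6378850, plus strand) had 14 to 52 counts, or 0.768 to 2.65 CPM, and all groups overlapped. Its 95% interval ran from -1.89 to 0.43 in 4OHT versus cAMP, from -0.38 to 1.91 in PD+LY versus 4OHT and from -1.04 to 1.10 in PD+LY versus cAMP, so each interval includes a 2-fold change and none was detectable at this depth. Of the antisense RNA Gm16000, 147 bases overlap Pdgfc exons.

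Pdgfrb encodes the beta receptor, carried by pericytes, smooth muscle precursors and fibroblasts, and lies on chromosome 18 (61045150 to 61085061, plus strand). It had 27.6 and 26.2 CPM in cAMP, 28.2 and 33.8 in 4OHT, and 14.5 and 11.3 in PD+LY. The PD+LY libraries were far below the other 4, and both 4OHT libraries stood slightly above cAMP. Its log2 fold change was 0.21 in 4OHT versus cAMP (SE 0.15), -1.26 in PD+LY versus 4OHT (SE 0.16; Benjamini-Hochberg adjusted p = 2.81e-04 by edgeR quasi-likelihood) and -1.06 in PD+LY versus cAMP (SE 0.16, adjusted p = 5.78e-04 by the same test). The call against 4OHT held with each library left out in turn (-1.45 to -1.10). Against cAMP the change was -0.89 without PD+LY library 2, under 2-fold.

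Pdgfra, the alpha receptor gene typical of mesenchymal progenitors (chromosome 5, 75152292 to 75198215, plus strand), had 161 and 144 CPM in cAMP, 125 and 147 in 4OHT, and 166 and 112 in PD+LY. The PD+LY libraries included the highest and the lowest value of all 6, and every group overlapped with the others. The log2 fold change was -0.16 in 4OHT versus cAMP, 0.03 in PD+LY versus 4OHT and -0.13 in PD+LY versus cAMP (SE 0.16 each). The sign in both PD+LY comparisons depended on the library: against 4OHT it was -0.27 without PD+LY library 1, 0.29 without PD+LY library 2 and -0.07 without 4OHT library 1, and against cAMP -0.44 without PD+LY library 1, then past the adjusted p but under 2-fold, and 0.13 without PD+LY library 2. The thyroid and mesenchymal sums were also higher in PD+LY library 1 than in library 2, and their part in this spread was not tested. Exons of Gm42802 (456 bases) and Gm42803 (166 bases) overlap Pdgfra on the opposite strand, and Mir7025 lies in 30 bases of its exons.

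The ratios between members are descriptions without a test. That of Pdgfra to Pdgfrb, in CPM per kb, was 3.18 and 3.00 in cAMP, 2.43 and 2.37 in 4OHT, and 6.25 and 5.42 in PD+LY. Both PD+LY libraries exceeded the other 4, even though their Pdgfra levels lay apart, and both 4OHT libraries were below cAMP. Among the ligands, the ratio of Pdgfa to Pdgfb was 3.68 and 5.55 in cAMP, 6.68 and 4.46 in 4OHT, and 8.74 and 9.40 in PD+LY. PD+LY was again the highest group, and cAMP and 4OHT overlapped.

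Kitl, the KIT ligand gene, expressed by many stromal and epithelial cells, lies on chromosome 10 (100015630 to 100100416, plus strand). It had 6.16 and 4.24 CPM in cAMP, 7.67 and 4.11 in 4OHT, and 18.9 and 11.9 in PD+LY. Both PD+LY libraries were above the other 4 but differed from each other, and cAMP lay within the 4OHT range. The log2 fold change was 0.18 in 4OHT versus cAMP (SE 0.33), 1.40 in PD+LY versus 4OHT (SE 0.31; Benjamini-Hochberg adjusted p = 0.00734 by edgeR quasi-likelihood) and 1.58 in PD+LY versus cAMP (SE 0.31, adjusted p = 0.00316 by the same test). Against cAMP the call held with each library left out in turn (1.20 to 1.88). Against 4OHT it was lost without 4OHT library 2, at 1.01, a fit in which 4OHT library 1 alone stood for its group. The uncalled estimate for 4OHT versus cAMP turned to -0.08 without cAMP library 2 and to -0.32 without 4OHT library 1.

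Kit, the receptor gene (chromosome 5, 75574916 to 75656722, plus strand), had 228 and 214 CPM in cAMP, 237 and 224 in 4OHT, and 328 and 322 in PD+LY. The PD+LY libraries were nearly equal and lay above the other 4, and cAMP and 4OHT overlapped. The log2 fold change was 0.06 in 4OHT versus cAMP (95% interval -0.13 to 0.25), 0.50 in PD+LY versus 4OHT (SE 0.09; Benjamini-Hochberg adjusted p = 0.00195 by edgeR quasi-likelihood) and 0.56 in PD+LY versus cAMP (SE 0.09, adjusted p = 6.85e-04 by the same test). These rises passed the adjusted p and stayed under 2-fold, so Kit was not called. Its interval in 4OHT versus cAMP excludes a 2-fold loss. The ratio of Kit to Kitl, in CPM per kb, was 24.5 and 33.4 in cAMP, 20.5 and 36.1 in 4OHT, and 11.5 and 18.0 in PD+LY, lowest in PD+LY.

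Proteases and binding partners of the ligands were described from a list of 10 processing genes and a list of 16 related ligands and receptors. Calls in these and all later lists stand beside 2.67% of all tested genes in 4OHT versus cAMP, 7.26% in PD+LY versus 4OHT and 9.24% in PD+LY versus cAMP. Counts at an unadjusted p under 0.05 stand beside 3659, 5610 and 5813 of all 15256 tested genes, in the same order. In 4OHT versus cAMP no processing gene was called by edgeR (0 of 10 tested; 7 at an unadjusted p under 0.05, beside 3659 of all 15256 tested genes, and 0 by DESeq2), and the list median was 0.34, beside -0.00215 for all tested genes. By adjusted p alone 3 were higher in 4OHT, beside 4.04% of all tested genes upward. Plat, the plasminogen activator that cleaves PDGF-C, rose by 0.65 (Benjamini-Hochberg adjusted p = 0.00556 by edgeR quasi-likelihood), St14 (matriptase, which cleaves PDGF-D) by 0.41 (edgeR adjusted p = 0.0270) and Mmp9, which can release soluble KIT ligand, by 0.76 (edgeR adjusted p = 0.0370). Plau (urokinase, which acts on PDGF-D) had 0.55, Furin, a proprotein convertase that processes PDGF-A and PDGF-B, 0.23 and Adam17, a sheddase of membrane proteins including KIT, -0.30, none of them past the adjusted p.

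With PD+LY versus 4OHT, 1 of 10 processing genes was called, and the median was -0.01 beside 0.01 for all tested genes. Mmp9 had 17.3 and 22.2 CPM in 4OHT and 4.23 and 4.09 in PD+LY, a log2 fold change of -2.25 (edgeR quasi-likelihood, Benjamini-Hochberg adjusted p = 4.53e-05). The groups did not overlap. By adjusted p alone Plat (-0.84) and Plau (-0.74) were also lower, and Adam17 (0.54) and the convertase gene Pcsk6 (0.73, named after its values were seen) were higher; St14 had -0.27 and Furin 0.01. Against cAMP Mmp9 fell by 1.49 and Pcsk5, another proprotein convertase, rose by 1.46, the 2 called genes of this list, with a median of 0.24 beside 0.00492 for all tested genes. Plat had -0.19, Plau -0.18, St14 0.15, Furin 0.24 and Adam17 0.24 against cAMP, none past the adjusted p. Exons of Iah1 overlap those of Adam17 on the opposite strand, and exons of Gm45213 those of Pcsk6 on the same strand.

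Of the 16 related ligands and receptors, which include the VEGF and CSF1 systems, 15 were tested. In 4OHT versus cAMP 1 was called, downward (median 0.11): Kdr, the main VEGF receptor of endothelium, had 9.94 and 10.7 CPM in cAMP and 1.53 and 2.58 in 4OHT, a log2 fold change of -2.31. Relative to 4OHT, 14 of the 15 estimates were below 0 in PD+LY (median -0.75), beside 7504 of all 15256 tested genes, 6 passed the adjusted p downward, beside 12.1%, and Vegfa was called (-1.38, edgeR quasi-likelihood, Benjamini-Hochberg adjusted p = 5.55e-05). Against cAMP all 15 estimates were below 0 (median -0.61), beside 7556 of all tested genes, with 8 past the adjusted p, beside 13.7% downward, and Kdr (-1.65) and Flt1 (-1.29) called. The coreceptor Nrp1 had -0.24, -0.16 and -0.40 in the 3 comparisons, none past the adjusted p. Lrp1, an endocytic receptor that binds PDGFRB, had 0.34 in 4OHT versus cAMP, -0.81 in PD+LY versus 4OHT (Benjamini-Hochberg adjusted p = 0.0157 by edgeR quasi-likelihood) and -0.48 in PD+LY versus cAMP.

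Adaptors, kinases and STATs bind the activated receptors. Of 26 such genes 0 were called by edgeR in 4OHT versus cAMP (9 at an unadjusted p under 0.05, beside 3659 of all 15256 tested genes; 0 by DESeq2; median -0.06) and 0 in PD+LY versus 4OHT (12 at an unadjusted p under 0.05, beside 5610 of all tested genes; 0 by DESeq2; median 0.03). A single gene was called in PD+LY versus cAMP (median -0.08), Plcg2, a phospholipase (-1.32). Of 13 genes that attenuate receptor signalling 0 were called in 4OHT versus cAMP by edgeR (4 at an unadjusted p under 0.05, 0 by DESeq2; median -0.06). The adaptors Dok2 and Sh2b2 were called downward in PD+LY, against 4OHT by -2.33 and -1.16 (2 of 13, and 1 by DESeq2; median -0.16) and against cAMP by -2.92 and -1.12 (2 of 13, and 2 by DESeq2; median -0.09). Dok2 rests on 2 and 23 counts in PD+LY.

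Among 31 other receptor tyrosine kinases, 29 of them tested, the median was -0.05 in 4OHT versus cAMP, where Ltk rose by 1.19 and the endothelial receptor Tie1 changed by -3.46, on 54 and 69 counts for cAMP but 4 and 6 for 4OHT. Relative to 4OHT, 2 rose in PD+LY, Fgfr2 by 1.38 and Ror1 by 1.24, and 2 fell, Egfr by -1.43 and Fgfr4 by -1.07 (median 0.03). Egfr had 9.94 and 11.3 CPM in cAMP, 19.8 and 21.7 in 4OHT, and 9.17 and 6.22 in PD+LY. The collagen receptor Ddr2 rose by 1.30 in PD+LY versus cAMP and Tie1 fell by 2.62 (median -0.03). Pdgfrb and Egfr were thus both called downward in PD+LY versus 4OHT, where Fgfr2 and Ror1 were called upward. Exons of Ctbp2 overlap those of Fgfr2 on the same strand.

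PDGF receptors are usually carried by mesenchymal and mural cells. The 12 fibroblast or mesenchymal markers, all present, summed to 3639 and 3263 CPM in cAMP, 4744 and 4915 in 4OHT, and 7363 and 6229.9 in PD+LY, led by Fn1. Fn1 had means of 2180, 2449 and 2322 CPM in cAMP, 4OHT and PD+LY. In the same order Col1a1 had 386, 876 and 1345, Col1a2 324, 605 and 1307, and Col3a1 246, 487 and 1337. Relative to 4OHT, 4 of the 12 markers were called upward in PD+LY and 1 downward (4 in all by DESeq2), and against cAMP 6 upward and 0 downward. The 11 mural markers summed to 336 and 406 CPM in cAMP, 420.0 and 410.0 in 4OHT, and 675 and 529 in PD+LY, led by Acta2. Here 4 were called upward and 1 downward against 4OHT, and 5 and 1 against cAMP. Both sums were highest in PD+LY, the group where Pdgfrb was lowest. By adjusted p alone, 5 mesenchymal and 6 mural markers were higher in PD+LY versus 4OHT and 3 of each list were lower. All tested genes passed that measure in 10.7% upward and 12.1% downward. The lower markers were Vim, Thy1 and Twist1 and the mural Abcc9, Mcam and Notch3. The part of these cells in the Pdgfrb values was not tested.

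Endothelial cells are a usual source of PDGF-B. The 10 endothelial markers summed to 212 and 205 CPM in cAMP, 235 and 233 in 4OHT, and 200.5 and 212 in PD+LY, led by Pecam1, and Emcn had 0 to 4 counts. In 4OHT versus cAMP 4 of 9 tested markers fell (3 by DESeq2), Cdh5, Tie1, Cldn5 and Sox18, while Pecam1, most of the sum, was higher by adjusted p alone (0.36) and Pdgfb had 0.12. Where Pdgfb fell, in PD+LY versus 4OHT, 1 of 9 was called, Esam (-1.05), and in PD+LY versus cAMP 3 were, Tie1, Cldn5 and Sox18, all downward. The part of endothelial cells in the Pdgfb values was not tested.

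Of 6 oligodendrocyte precursor markers, cells that carry the alpha receptor, 5 were tested, with sums of 17.2 and 15.4 CPM in cAMP, 18.0 and 18.4 in 4OHT, and 12.8 and 13.7 in PD+LY, led by Bcan. Olig1 alone was called, downward in PD+LY (-1.30 against 4OHT and -1.39 against cAMP). Of 8 epithelial markers, led by Cdh1, 1 was called downward in 4OHT versus cAMP, 3 in PD+LY versus 4OHT and 4 in PD+LY versus cAMP. By adjusted p alone 7 were lower and 1, Cdh1 itself, higher (0.67) in PD+LY versus 4OHT. Of all tested genes 12.1% were lower and 10.7% higher by that measure. Their sum was 1099.9 and 1189.6 CPM in cAMP, 835 and 938 in 4OHT, and 782 and 820.2 in PD+LY.

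For KIT, the defining mast cell markers Ms4a2, Fcer1a, Mcpt4, Tpsb2 and Cma1 had 0 counts in all 6 libraries, which at 3 counts a library allows up to 0.146 to 0.200 CPM each, a limit that covers counting error only. The 8 mast markers summed to 8.81 and 9.02 CPM in cAMP, 8.61 and 9.60 in 4OHT, and 7.69 and 7.83 in PD+LY, nearly all from Gata2 and Hdc, the 2 that could be tested. By edgeR 0 of them were called in each comparison (0, 1 and 1 at an unadjusted p under 0.05, and 0 by DESeq2), and Cpa3 had 0 to 2 counts. The 7 melanocyte markers summed to 105 and 94.2 CPM in cAMP, 92.2 and 107 in 4OHT, and 133 and 114 in PD+LY, led by Tyrp1. The higher PD+LY sum came from Mitf, while Tyrp1, Dct and Pmel had estimates between -0.06 and 0.25 in both PD+LY comparisons. The one called was Mitf, a melanocyte factor downstream of KIT, which had a mean of 9.84 CPM (SD 1.65, n = 2) in cAMP, 14.5 (SD 1.71) in 4OHT and 34.5 (SD 7.46) in PD+LY (log2 fold change 1.25 against 4OHT and 1.82 against cAMP). Both PD+LY libraries were above the other 4, as for Kit and Kitl.

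Germ cells are among those known to carry KIT. Their 6 markers summed to 262 and 255 CPM in cAMP, 366 and 339 in 4OHT, and 763 and 729 in PD+LY, led by Dazl. Called upward were 1 of 6 in 4OHT versus cAMP (Dazl), 3 in PD+LY versus 4OHT (Dazl, Dppa3 and Prdm1) and 2 in PD+LY versus cAMP (Dazl and Dppa3). In each PD+LY comparison 5 of the 6 estimates were above 0 and 1 was below. Ddx4 did not rise, with group means of 18.3 (cAMP), 17.5 (4OHT) and 16.6 CPM (PD+LY). Nanos3 rests on 9 to 26 counts. In 4OHT versus cAMP 3 of the 6 estimates were below 0, Prdm1 past the adjusted p (-0.80), and the higher sum was mostly Dazl. Of 3 markers of interstitial cells of Cajal, Etv1 led and was lower in PD+LY (-1.77 relative to 4OHT, -1.75 relative to cAMP). The sum was 9.83 and 6.95 CPM in PD+LY, against 23.5 and 22.6 in cAMP and 20.3 and 20.7 in 4OHT. All 3 estimates were below 0 in both PD+LY comparisons. Ano1 had only -0.17 relative to 4OHT, and Thbs4 rests on 2 to 23 counts. The paper lists Etv1 among the genes of its ERK activation score, so this sum is not specific to these cells. The thyroid sum is nearly all Tg, and Tshr, Iyd, Foxe1 and Slc5a5 were above both cAMP libraries in both PD+LY libraries, as Kit was. Called upward in PD+LY versus 4OHT were 6 of 10 tested thyroid markers (5 by DESeq2), beside 2.35% of all tested genes. In PD+LY versus cAMP 2 were (1 by DESeq2), beside 3.00%, and in 4OHT versus cAMP 2 were called downward (3 by DESeq2), beside 1.51%. The part of any of these cell types in the Kit and Kitl values was not tested.

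The same holds for 3 further lists. Of 8 pluripotency markers 0 were called by edgeR in each comparison, and 0 by DESeq2. At an unadjusted p under 0.05 were 3 in 4OHT versus cAMP, 4 in PD+LY versus 4OHT and 7 in PD+LY versus cAMP. Of all 15256 tested genes 3659, 5610 and 5813 were. By adjusted p alone, the measure that Kit passed, 2 were higher and 2 lower in PD+LY versus 4OHT and 5 higher and 2 lower in PD+LY versus cAMP, beside 22.7% and 25.7% of all tested genes. The 8 primitive endoderm markers, led by Ttr, summed to 625 and 699 CPM in cAMP, 565 and 573 in 4OHT, and 636 and 609.7 in PD+LY, and Dab2 fell in both PD+LY comparisons (-1.28 and -1.40) and Afp in the one with cAMP (-3.80). Ptprc and Adgre1, which define macrophages, had 0 counts in all 6 libraries; the 6 macrophage markers summed to 66.5 and 68.7 CPM in cAMP, 57.7 and 64.7 in 4OHT, and 31.9 and 33.8 in PD+LY, nearly all from Cd68, which fell in PD+LY relative to cAMP (-1.03), as did Lyz2 (-3.82, and -3.44 relative to 4OHT, on 0 and 4 counts in PD+LY).

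The genes whose pattern over the 6 libraries was most like that of each member were taken by Pearson correlation of log2 CPM among about 11221 tested genes with a mean of at least 5 CPM, a description over 3 groups of 2 in which the highest of many values are high by choice. For Kit they were Lgi2, Actr10 and Glis3 (r = 0.999, 0.998 and 0.998), and for Kitl Arpc5, Ccnyl1 and Actr6 (0.998, 0.995 and 0.995). For Pdgfrb they were Gbf1, Slco2a1 and Cx3cl1 (0.997, 0.997 and 0.996), and for Pdgfra Lamb1, Lysmd3 and Lats1 (0.985, 0.983 and 0.981), with a laminin gene first. Among the ligands Pdgfa was followed by Capzb, Gpn3 and Gtpbp3, Pdgfb by Copa, Dip2b and Wipi1, Pdgfc by Tenm4, Paip2b and Alg11, and Pdgfd by Efr3a, Tra2b and Shcbp1 (0.986 to 0.998).

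Pdgfra, Kit and Kdr lie next to each other on chromosome 5, with 376700 bases between Pdgfra and Kit, 276104 between Kit and Kdr and 0 protein-coding genes in either gap. In PD+LY versus cAMP the log2 fold changes of these neighbours were -0.13, 0.56 and -1.65, of which that of Pdgfra did not pass the adjusted p. Pdgfrb and Csf1r, another pair of neighbouring receptor genes, are 15536 bases apart, also with 0 protein-coding genes between. Csf1r had 13 to 26 counts in the libraries and was not called in any comparison. Exons of Hmgxb3 on the opposite strand cover 873 bases, 15.1%, of the Csf1r exons, so these unstranded counts may include reads of Hmgxb3.

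The 250 bases before the RefSeq start (GRCm38.p6) were searched on both strands because Kit and Kitl were higher together in PD+LY. The table held 6 of the 8 genes with 8 starts; Pdgfb and Pdgfrb were not matched. The motifs were the TATA box (TATAAA, in 12.3% of 32536 such windows), the GC box (GGGCGG, 33.0%), the cAMP response element (TGACGTCA, 1.56%), AP-1 (TGANTCA, 6.73%), ETS (CCGGAAG, 6.95%), FOXO (GTAAACA, 3.17%) and the E-box (CACGTG, 6.04%). GC boxes were found at Kit, Kitl and Pdgfa, a TATA box at Kitl and Pdgfd and an ETS motif at Kitl, and the windows of Pdgfc and Pdgfra held none of the 7. The cAMP response element, AP-1, FOXO and E-box letters were in none of the 8 windows. A match is a string of letters and was not tested for binding.

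Shown are the part of the Kit window before the first annotated exon (chr5:75574737-75574915, plus strand) and the Kitl stretch from the plus-strand GC boxes at -45 and -41, which overlap by 2 bases, to its TATA box (chr10:100015776-100015801, plus strand, within an exon of a GENCODE M21 transcript that starts further upstream). Capitals mark the motifs, and both are RefSeq sequence of GRCm38.p6.
Kit: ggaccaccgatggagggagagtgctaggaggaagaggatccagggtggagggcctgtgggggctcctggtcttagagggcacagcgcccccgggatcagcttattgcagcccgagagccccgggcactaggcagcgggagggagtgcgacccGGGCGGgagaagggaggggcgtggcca
Kitl: GGGCGGGCGGgagggagctgTATAAA
A further GC box of Kitl, at -143 on the minus strand, lies outside the stretch. Both stretches hold the GC box, a motif found in 33.0% of windows, and the TATA box of Kitl starts at -25 from the RefSeq start.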

How the data were processed

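The authors trimmed paired-end reads with Trimmomatic, mapped them to mm10 with HISAT2 and obtained unstranded gene counts from HTSeq; the deposited values are these raw counts, and annotation and tool versions are not given in the sources used here. Genes were filtered with filterByExpr (minimum count 10, minimum total 15) in edgeR 4.0.16 (R 4.3.3), which left 15256 of 25239, and normalized with TMM. A quasi-likelihood model of the 3 groups was fitted to all 6 libraries. DESeq2 1.42.0, RLE factors, other filters, only the 2 groups compared, a replicate block, each library left out and no fold threshold were the alternatives. The procedure was tested on simulated data, in which both tools missed part of the changed genes; the recovery required was limited to well-counted genes after that was seen.

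The members and lists were chosen with earlier results of these data known. Named are the 8 members, the called genes of 5 pathway lists (at most 6 per list and comparison), Plat, Plau, St14, Furin, Adam17, Mmp9, Nrp1 and Lrp1, and the 3 genes best correlated with each member (log2 CPM, prior count 2). A result that falls under this rule is not reported here. The 13 cell type marker lists are given by counts, sums and leading or called genes, and genes named from them beyond that were picked after their values were seen. Gene positions, exon lengths and overlaps come from GENCODE M21.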

Additional observations from a re-analysis of the deposited data

How the results depend on the processing

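Across the alternatives listed with the methods 273 of the single-gene values kept their direction and their call by adjusted p and fold together, 11 reversed, 1 became called and 3 lost a call. Without the fold threshold 1280, 3469 and 3925 genes were called in the 4OHT versus cAMP, PD+LY versus 4OHT and PD+LY versus cAMP comparisons, and 4 of the 8 members in the last, because Kit and Pdgfb then count. When each library was omitted in turn, 150 to 484, 610 to 1177 and 1118 to 1408 genes were called, and 0 to 0, 1 to 3 and 1 to 3 members; the library left alone in its group is then assumed to vary like the others. The 3 lost calls were Pdgfb (-0.82) and Kitl (1.01) in PD+LY versus 4OHT without 4OHT library 2 and Pdgfrb (-0.89) in PD+LY versus cAMP without PD+LY library 2. Pdgfb became called in PD+LY versus cAMP without cAMP library 2 (-1.11). The adjusted p alone crossed 0.05 for 3 uncalled members as well, Pdgfa in 4OHT versus cAMP (4 alternatives), Pdgfb in PD+LY versus cAMP (without cAMP library 1) and Pdgfra in PD+LY versus cAMP (without PD+LY library 1). All reversals were of uncalled values. In 4OHT versus cAMP they were Pdgfb without cAMP library 2 (-0.06) and without 4OHT library 2 (-0.10), and Kitl without cAMP library 2 (-0.08) and without 4OHT library 1 (-0.32), within ranges up to 0.33 and 0.57. In PD+LY versus 4OHT they were Pdgfra without 4OHT library 1 (-0.07) and, in a range up to 0.29, without PD+LY library 1 (-0.27). In PD+LY versus cAMP they were Pdgfd without cAMP library 2 (-0.37) and without PD+LY library 1 (-0.63), Pdgfa without cAMP library 1 (-0.00727) and Pdgfra without PD+LY library 2 (0.13), within ranges up to 0.55 and 0.19 and down to -0.44. The replicate block turned Pdgfd in PD+LY versus cAMP to -0.00892, called 513 genes in place of 408 in 4OHT versus cAMP and changed no call of a member. Same-numbered libraries share only a number: the correlations of their deviations were 0.0718 (cAMP and 4OHT), 0.207 (cAMP and PD+LY) and 0.0586 (4OHT and PD+LY) over 15256 genes. The cause of these shifts was not tested. With 2 libraries a group, Pdgfd (SE 0.49 to 0.53) and Kitl (SE 0.31 to 0.33) have the least precise fold changes of the 8 members.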

Other observations

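Several genes that carry the signal from PDGF receptors and KIT passed the adjusted p without reaching 2-fold; they are named here after their values were seen. In PD+LY versus 4OHT 6 of 26 such genes were higher and 5 lower by adjusted p alone, where 22.7% of all tested genes passed. Grb2, the adaptor that brings SOS to the receptors, rose by 0.57 (edgeR quasi-likelihood, Benjamini-Hochberg adjusted p = 0.00110), Sos2 by 0.46, Pik3r1, the regulatory subunit of PI3K, by 0.54 and the kinase Yes1 by 0.67. Pik3cd, a catalytic subunit of PI3K, fell by 0.95 (edgeR quasi-likelihood, Benjamini-Hochberg adjusted p = 6.02e-04), Src by 0.53, Fyn by 0.52 and Stat3 by 0.43. In PD+LY versus cAMP 3 were higher and 6 lower by adjusted p alone, where 25.7% of all tested genes passed, and Grb2 had 0.76, Sos2 0.78, Yes1 0.61, Pik3cd -0.98 and Src -0.38. Members of one kinase or lipid kinase family thus lay on opposite sides of 0 in these libraries. In 4OHT versus cAMP 1 was higher and 1 lower by adjusted p alone, where 8.39% of all tested genes passed: Stat3 rose by 0.48 (Benjamini-Hochberg adjusted p = 0.00822 by edgeR quasi-likelihood) and Plcg2 fell by 0.64 (edgeR quasi-likelihood, Benjamini-Hochberg adjusted p = 0.00798).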
